A study of Mus musculus with 8 samples.

Results

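The Wnt pathway genes of the deposited count table were 65 of its 32531 gene symbols, and were followed in pancreatic islets with and without induced Notch activity. They were chosen by name: every symbol that begins with Wnt, Fzd, Sfrp, Dkk or Rspo and a digit, and named symbols for co-receptors, inhibitors, transducers and nuclear effectors of the pathway (Lrp5, Lrp6, Axin1, Axin2, Lgr4 to Lgr6, Tcf7, Tcf7l1, Tcf7l2, Lef1, Rnf43, Znrf3, Nkd1, Nkd2, Wif1, Ror1, Ror2, Ryk, Frzb, Dvl1 to Dvl3 and Apcdd1). The rule uses no measured value, but it was chosen with earlier results of these data known.

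Both groups were mice of a mixed C57BL/6J, 129X1/SvJ and BALB/c background that carried RIP-Cre and Rosa26-rtTA and were given doxycycline (Dox) for 8 weeks, and their ages were not given in the sources used here. The 4 β-tetO-NICD mice, called NICD below as in the labels, also carried tetO_NICD, which Dox switches on to make the intracellular part of Notch1 that acts in the nucleus, whereas the 4 control mice lacked it. Cre is driven by the rat insulin promoter, so rtTA and NICD are meant for β cells, while the RNA came from whole isolated islets with all their cell types. In such bulk RNA, fewer cells of a type and less RNA per cell cannot be told apart. Nothing in the labels says more of how the mice were related than their sample names, so a p value measures the spread between these 8 samples.

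Wnts are secreted, lipid-bearing ligands that bind Frizzled (Fzd) receptors together with the co-receptors Lrp5 or Lrp6. In the canonical branch, Dishevelled (Dvl) proteins then hold back the Axin complex that marks β-catenin for destruction, and β-catenin joins Tcf and Lef factors on DNA. R-spondins bind Lgr receptors and keep the ubiquitin ligases Rnf43 and Znrf3 from removing Frizzled from the cell surface, and secreted proteins of the Sfrp, Frzb, Dkk and Wif1 kind oppose the ligands or their co-receptors. In the pancreas the pathway is known for its part in organ growth and β cell proliferation, and Tcf7l2 is well known from the genetics of diabetes.

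The sequences just upstream of Wnt4, the most abundant Wnt of these islets, and Wnt9a, the Wnt with the highest fitted fold change of the 7 tested, are shown because both ligands were higher in NICD islets. They are the parts of RefSeq promoter windows (GRCm38.p6) that lie before the first base of each gene in GENCODE M21, on the + strand, 5′ to 3′. For Wnt4 this is chr4:137277385-137277488 (104 bases) and for Wnt9a chr11:59306680-59306927 (248 bases). Capitals mark the only match to the motifs searched, the core letters TGGGAA of the site of RBPJ, the DNA-binding partner of NICD, here as TTCCCA because it lies on the opposite strand.
Wnt4: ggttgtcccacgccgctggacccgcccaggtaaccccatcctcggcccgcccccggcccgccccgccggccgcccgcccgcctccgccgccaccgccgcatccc
Wnt9a: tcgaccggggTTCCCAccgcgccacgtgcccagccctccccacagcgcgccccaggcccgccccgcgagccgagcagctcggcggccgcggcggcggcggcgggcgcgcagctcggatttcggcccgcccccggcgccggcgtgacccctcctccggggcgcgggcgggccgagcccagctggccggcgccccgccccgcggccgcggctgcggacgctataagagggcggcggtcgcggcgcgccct
The capitals begin 238 bases before the first annotated base of Wnt9a. G and C made up 83.7% of the Wnt4 sequence and 84.3% of the Wnt9a sequence. TGGGAA occurred on either strand in 25.6% of all 32851 RefSeq promoter windows (250 bases before to 50 after each start), in 10 of the 41 windows that matched 32 of the tested Wnt pathway genes, and in 1 of the 7 windows of the 6 genes that passed the test below. ATCAAAG, a TCF/LEF site, occurred on either strand in 3.73% of all windows, in 2 of these 41 (Wnt11 and Wnt5b) and in 0 of these 7. Neither motif contains the other, and a match is only a description of the letters.

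The libraries held 22430941 to 25950164 counts in controls and 21701223 to 26413146 in NICD islets, where 3 counts, the limit that a count of 0 allows, equal at most 0.151 CPM (counts scaled to the normalized library size), a limit for counting alone. Columns of the NICD group are numbered 1, 2, 4 and 5, and columns 4 and 5 are known by group only. Notch1, part of which the transgene encodes, was higher in every NICD library (log2 fold change 4.18, adjusted p = 0.000102 by the quasi-likelihood test of edgeR, adjusted over all tested genes by Benjamini-Hochberg, as are all adjusted p values here). Features of the libraries that cross the groups touch results below. Long transcripts were relatively abundant in controls 1, 2 and 4 and NICD library 1 (Spearman's rho 0.418 to 0.497 across genes) and relatively scarce in control 3 and NICD libraries 2, 4 and 5 (-0.174 to -0.521). Counts of Eif2s3y, a Y-linked gene, were 1300 to 1527 in 3 libraries (controls 2 and 4, NICD library 5) and never above 1 in the remaining 5. The labels give no sex, and the study's methods name male mice as the source of islets for gene expression.

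Of the 65 Wnt pathway genes, 47 had at least 10 counts in at least 4 libraries and were tested. Wnt9a, Wnt4, Fzd10, Lgr4, Sfrp5 and Rnf43 were higher in NICD islets, by 1.83 to 10.8 times in mean CPM, and 0 were lower. An unadjusted p under 0.05 was found for 4 with lower values (Wnt5b, Rspo2, Fzd3 and Fzd5) and 10 with higher ones (15.0% and 16.6% of all tested genes), and DESeq2 called 2 lower (8.25% of all tested genes) and limma-voom 0 (3.06%). The 6 comprise 2 ligands, 2 receptors, 1 secreted inhibitor and 1 membrane inhibitor. Of all 15082 tested genes, 4.19% were called higher and 2.57% lower. The median log2 fold change was 0.09 over the 47 genes and 0.00 over all tested genes, with 28 of the 47 above 0 and 19 below. Fzd10, Lef1 and Sfrp2 reached the count minimum through the NICD libraries alone, so each of them had to be higher there to be tested at all, and the counts over tested genes describe them and support nothing. The groups did not overlap, with NICD higher, for 8 of the 47 (8.22% of all tested genes), and with NICD lower for 3 (7.92% of all tested genes). The plot of fold changes by role shows all 47.

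**Figure D1:**
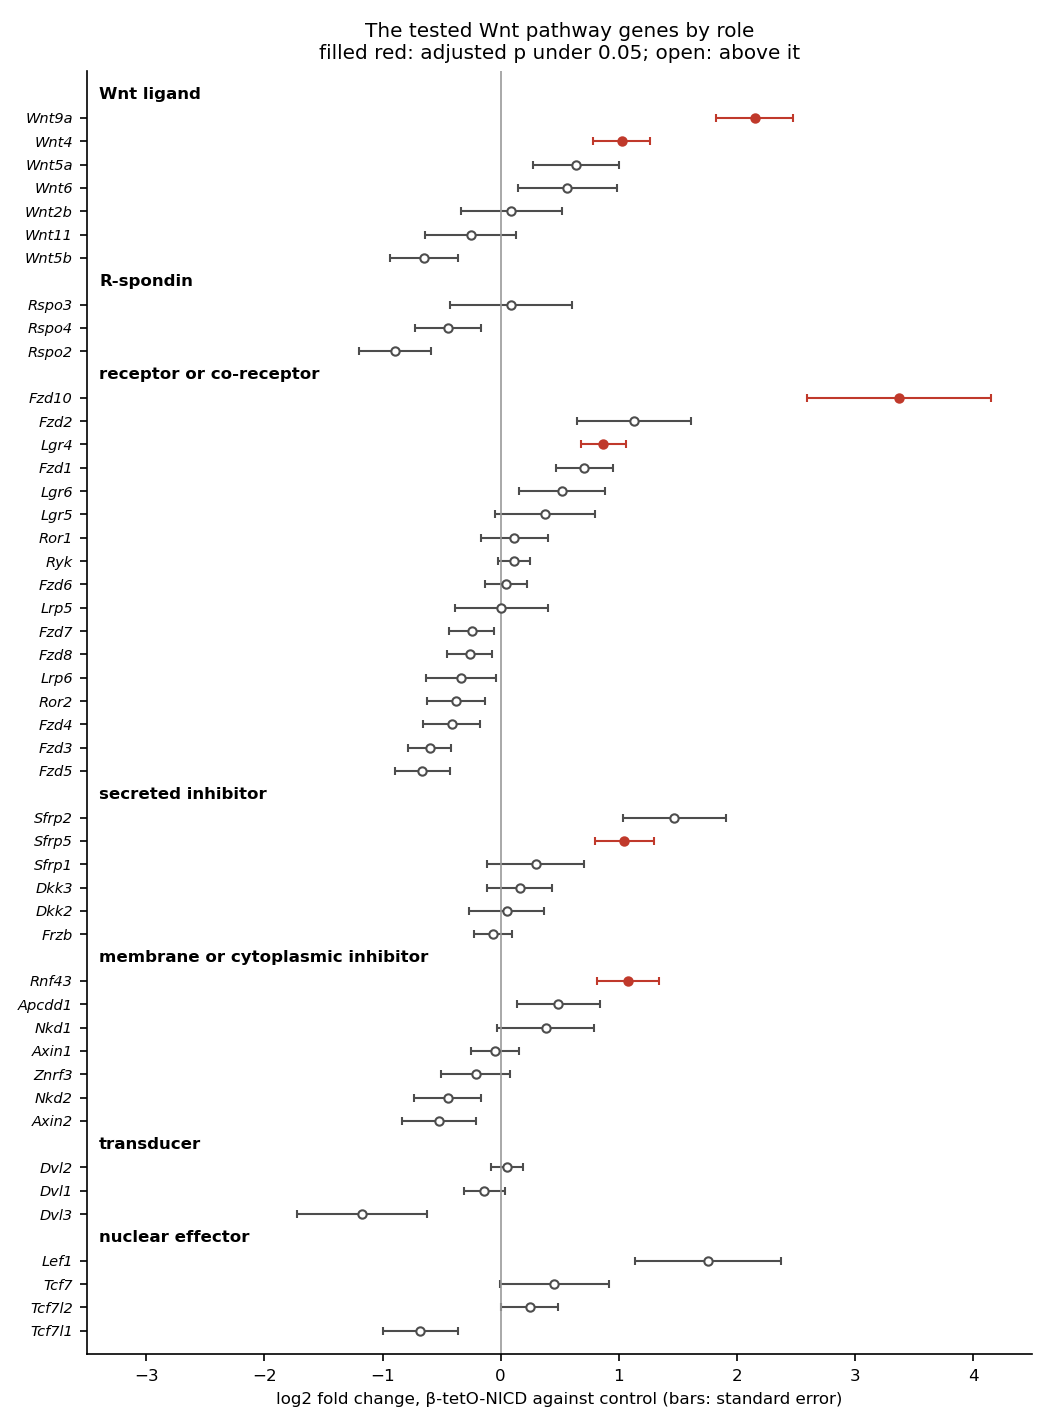
Log2 fold change of NICD against control islets (x axis) for the 47 tested Wnt pathway genes, grouped by role, with bars of 1 standard error (n = 4 per group); filled red points have an adjusted p under 0.05. The 6 red points lie to the right of 0, from 0.87 (Lgr4) to 3.37 (Fzd10), and Dvl3 is the point farthest to the left, at -1.17.

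Among the ligands, Wnt4 dominated. Wnt4, known for its part in kidney and female reproductive tract development and in endocrine tissues, stood at 188, 163, 221 and 127 CPM in controls 1 to 4 and at 231, 424, 336 and 431 CPM in NICD libraries 1, 2, 4 and 5. All 4 NICD libraries lay above all controls, library 1 only just above control 3. The mean rose from 175 ± 39.4 to 355 ± 93.8 CPM (SD, n = 4 each), or 1.03 on the log2 scale (standard error, SE, 0.24, adjusted p = 0.0363). Wnt4 lies on chromosome 4 of GRCm38 from 137277489 to 137299726.

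Wnt9a, a ligand known from joint and skeletal development, was scarce in controls, at 1.80, 0.971, 2.69 and 1.83 CPM. It reached 6.70, 9.61, 10.2 and 6.00 CPM in the NICD libraries, each well above the highest control. The mean rose from 1.82 ± 0.702 to 8.12 ± 2.08 CPM (SD, n = 4 each), or 2.15 on the log2 scale (SE 0.33, adjusted p = 0.00548), and it is on chromosome 11 from 59306928 to 59333552. It was also the only Wnt pathway gene that stayed under the threshold in all 8 fits that each left out 1 library.

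The other 5 tested Wnts did not pass. Wnt5b, a ligand of β-catenin-independent signalling, had 6.18, 5.95, 9.14 and 4.38 CPM in controls and 2.57, 4.98, 4.25 and 4.53 CPM in NICD libraries, which overlap (log2 fold change -0.65, adjusted p = 0.153). With the sign of each library's length trend as a covariate, chosen after the data were seen, Wnt5b was called lower (log2 fold change -1.04, adjusted p = 0.0313). Wnt5a, Wnt6, Wnt2b and Wnt11 had group means between 0.522 and 1.93 CPM. As a description per length (CPM per kb of the longest transcript), the summed level of all Wnts was 45.9 ± 10.05 in controls and 90.4 ± 22.9 in NICD islets (SD, n = 4 each), and Wnt4 made up 90.5% ± 1.19 and 93.6% ± 1.29 of it. Wnt5b went from 5.36% to 6.64% of this sum in controls to 1.77% to 2.08% in NICD islets, and Wnt9a from a mean of 1.20% to 2.83%. Such shares also move with Wnt4, which makes up most of the sum. Wnt5b itself had 2.71 ± 0.837 CPM per kb in controls and 1.72 ± 0.445 in NICD islets (SD, n = 4 each).

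Of the 18 Wnt pathway genes under the count minimum, 12 were Wnts. Wnt10a had 4, 3, 1 and 2 counts in controls and 3, 20, 5 and 10 in NICD libraries. Rspo1, an R-spondin, had 4, 4, 5 and 6 counts and 10, 2, 10 and 1. These were the 2 of the 18 with 10 counts or more in any library. Wnt1 had no count in any library, and 8 of the 18, Wnt1 included, had at most 3 counts in every library. Wnt10b, Wnt16, Wnt2, Wnt3, Wnt3a, Wnt7a, Wnt7b, Wnt8a, Wnt8b, Wnt9b, Fzd9, Dkk1, Dkk4, Sfrp4 and Wif1 were the others under the minimum, with at most 9 counts in a library. With a minimum of 1 count over all libraries, 17 of the 18 (all but Wnt1) were tested and 0 were called (lowest adjusted p = 0.141), where 2.88% of all genes tested with that minimum were called higher and 1.60% lower. An unadjusted p under 0.05 was found for 2 of the 17 with higher values and 0 with lower ones, against 13.2% and 11.8% of all genes.

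**Figure D2:**
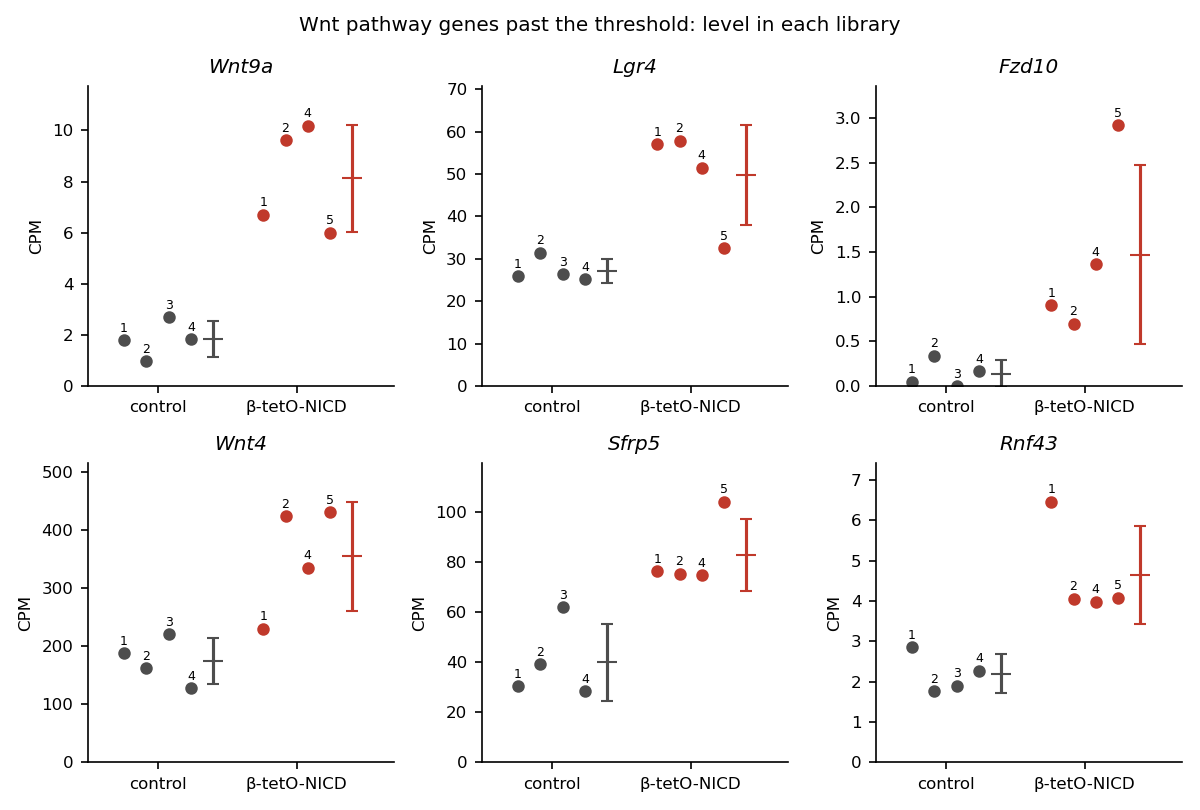
CPM of each library (points, numbered as in the count table) for the 6 Wnt pathway genes with an adjusted p under 0.05, with the mean and SD of each group beside them (n = 4) and each y axis starting at 0, where the lower SD bar of Fzd10 in controls ends. In each panel the 4 NICD libraries lie above the 4 controls, with the smallest gap relative to the gene's level for Wnt4 (221 against 231 CPM) and for Lgr4 (31.4 against 32.5 CPM).

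The R-spondins, which boost Wnt signalling through Lgr receptors, did not pass in either direction (3 of 4 tested). Rspo4 was the most abundant, 86.0% of the R-spondin sum per kb in controls and 87.2% in NICD islets, with 24.7, 15.3, 14.0 and 10.8 CPM in controls and 15.9, 12.8, 10.3 and 8.61 CPM in NICD libraries. These ranges overlap (log2 fold change -0.45, adjusted p = 0.280). Rspo2 had 1.52, 2.74, 1.94 and 3.17 CPM in controls and 1.33, 1.14, 1.49 and 1.06 CPM in NICD libraries, which lay just below the controls without overlap (log2 fold change -0.90, adjusted p = 0.0932). Rspo3 had 0.553, 0.760, 0.158 and 0.852 CPM in controls and 0.570, 0.437, 0.432 and 1.06 CPM in NICD libraries (adjusted p = 0.918).

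Lgr4, the receptor of R-spondins that made up 96.0% of the summed Lgr level per kb in controls and 96.8% in NICD islets, was higher. It had 25.9, 31.4, 26.3 and 25.1 CPM in controls and 57.0, 57.9, 51.5 and 32.5 CPM in NICD libraries. Libraries 1, 2 and 4 were well above every control, and library 5 exceeded control 2 by little. On average Lgr4 rose from 27.2 ± 2.86 to 49.7 ± 11.8 CPM (SD, n = 4 each), or 0.87 on the log2 scale (SE 0.19, adjusted p = 0.0281), for this gene on chromosome 2 from 109917647 to 110014257. Its relatives Lgr5 and Lgr6, of which Lgr5 is known as a stem cell marker of the gut, were under 1 CPM on average in both groups and did not pass.

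Among the Frizzled receptors, 9 of 10 were tested and Fzd10 alone was called, a gene that only its NICD libraries brought over the count minimum and that a minimum of 10 counts in every library leaves out. Fzd10 was near absent in controls, with 1, 8, 0 and 4 counts, and had 19, 16, 41 and 58 counts in the NICD libraries. The mean rose from 0.137 ± 0.151 to 1.47 ± 1.01 CPM (SD, n = 4 each), with or 3.37 on the log2 scale (SE 0.78, adjusted p = 0.0342). The gene is on chromosome 5 from 128600844 to 128604093, and at this low level it remained among the scarcer Frizzleds, at 0.453 CPM per kb in NICD islets against 5.01 for Fzd6, the most abundant. Fzd6 itself had 21.0 ± 4.86 and 21.7 ± 2.01 CPM (SD, n = 4 each).

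None of the other 8 tested Frizzleds passed, 3 with fitted fold changes above 0 and 5 below. Fzd3, a receptor of planar cell polarity and axon guidance, had 25.6, 23.9, 18.6 and 19.9 CPM in controls and 18.5, 14.8, 12.6 and 12.0 CPM in NICD libraries, each below every control (log2 fold change -0.60, adjusted p = 0.0730). With an offset for transcript length its log2 fold change was 0.08 (adjusted p = 0.832), so its direction depends on that setting. DESeq2, the acinar covariate, the replicate block and the fits without NICD library 1 and without control 3 and NICD library 1 called it lower (adjusted p = 0.00724 to 0.0440). Fzd5 was the other with lower values in each NICD library, 4.66, 3.72, 3.44 and 3.25 CPM in controls against 2.95, 2.05, 2.29 and 2.22 CPM (log2 fold change -0.66, adjusted p = 0.0989). DESeq2 and the fits without NICD library 1 and without control 3 and NICD library 1 called Fzd5 lower (adjusted p = 0.0357 to 0.0469). Fzd1 had 3.18, 4.69, 2.93 and 3.37 CPM in controls and 7.41, 6.07, 4.68 and 5.04 CPM in NICD libraries, where library 4 fell just below control 2 (log2 fold change 0.71, adjusted p = 0.0925). DESeq2 (adjusted p = 0.0329) and the length offset (0.0379) called Fzd1 higher. Fzd1, Fzd3 and Fzd5 were singled out after their values were seen. Fzd2, scarce in both groups, had 0.507, 0.718, 0.119 and 0.812 CPM in controls and 0.808, 1.27, 1.20 and 1.46 CPM in NICD libraries, which overlap (log2 fold change 1.13, adjusted p = 0.148). The summed Frizzled level per kb was 16.1 ± 2.59 in controls and 15.0 ± 1.44 in NICD islets (SD, n = 4 each).

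The co-receptors and alternative receptors did not pass. Ryk, a receptor tyrosine kinase-like Wnt receptor and the most abundant receptor per kb, had 44.3, 39.3, 47.6 and 35.7 CPM in controls and 42.9, 43.7, 44.5 and 49.6 CPM in NICD libraries (log2 fold change 0.11, adjusted p = 0.566). Lrp6, a canonical co-receptor, had 92.5, 77.7, 49.5 and 78.9 CPM in controls and 99.4, 42.1, 48.6 and 47.1 CPM in NICD libraries. Control 3 was low and NICD library 1 high within their groups, the libraries whose length trend has the other sign than the rest of their group (log2 fold change -0.33, adjusted p = 0.444). Lrp6 was called lower without NICD library 1 (log2 fold change -0.70, adjusted p = 0.0280) and without both of these libraries (-0.85, adjusted p = 0.00326), and had 0.16 with the length offset (adjusted p = 0.416). Ror2, a receptor for Wnt5a, had 36.8, 31.8, 25.0 and 29.3 CPM in controls and 26.1, 29.9, 25.8 and 12.9 CPM in NICD libraries, of which library 5 lay apart (log2 fold change -0.38, adjusted p = 0.301). Lrp5 had 39.4 ± 13.9 and 39.5 ± 18.4 CPM (SD, n = 4 each), and Ror1, Fzd4, Fzd7 and Fzd8 had adjusted p values of 0.255 to 0.786.

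Frzb (also called Sfrp3), a decoy that binds Wnts, was the most abundant Wnt pathway gene per kb in controls, at 68.1 CPM per kb, with 65.1 in NICD islets. It had 216, 200, 236 and 206 CPM in controls and 259, 180, 204 and 177 CPM in NICD libraries, whose range enclosed that of the controls (log2 fold change -0.07, SE 0.16, adjusted p = 0.796). Its relative Sfrp5, a secreted decoy of the same family, was higher. Sfrp5 had 30.4, 39.1, 61.9 and 28.5 CPM in controls and 76.3, 75.4, 74.8 and 104 CPM in NICD libraries. Control 3 was the nearest to the NICD libraries, 3 of which were nearly equal. Sfrp5 rose on average from 40.0 ± 15.3 to 82.6 ± 14.3 CPM (SD, n = 4 each), or 1.05 on the log2 scale (SE 0.25, adjusted p = 0.0385), and the gene is on chromosome 19 from 42197971 to 42202252 on the - strand. As a description, Sfrp5 made up 22.5% ± 5.52 of the summed Sfrp and Frzb level per kb in controls and 39.1% ± 6.35 in NICD islets, and Frzb 75.0% ± 5.24 and 58.2% ± 7.28 (SD, n = 4 each).

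Sfrp2 had 7, 8, 2 and 7 counts in controls and 19, 13, 22 and 13 in NICD libraries, which did not overlap, at an adjusted p of 0.0686 (log2 fold change 1.47). It was called higher by DESeq2 (adjusted p = 0.0496) and with the covariate for the length trend (0.0437). Sfrp2 reached the count minimum through its NICD libraries alone, so these values describe it and support nothing. Sfrp1 overlapped between the groups, at 9.11 ± 5.09 and 11.2 ± 5.20 CPM (SD, n = 4 each). The Dickkopf genes, whose best known member Dkk1 blocks Lrp6, were represented by Dkk3 and Dkk2. Dkk3 had 7.84, 14.5, 8.70 and 18.7 CPM in controls and 12.2, 12.7, 15.1 and 15.7 CPM in NICD libraries, all within the range of the controls (adjusted p = 0.699). Dkk2 had group means of 2.61 ± 0.831 and 2.71 ± 0.925 CPM (SD, n = 4 each), while Dkk1 and Dkk4 had at most 3 counts in any library.

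**Figure D3:**
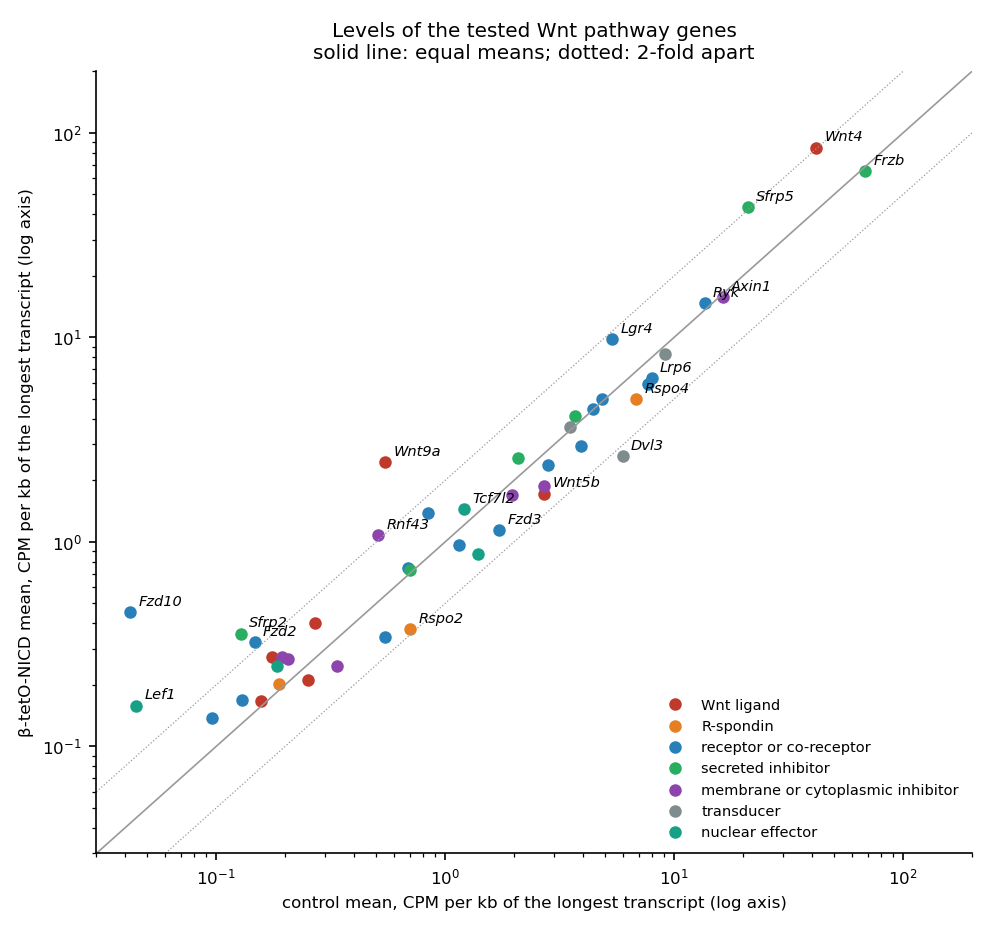
Mean level of the 47 tested Wnt pathway genes in control (x axis) and NICD islets (y axis), in CPM per kb of the longest transcript on log axes, with n = 4 per group and colours by role; the solid line marks equal means and the dotted lines a 2-fold difference. Wnt4 (41.7 and 84.8), Frzb (68.1 and 65.1) and Sfrp5 (21.0 and 43.5) are the highest points, and Fzd10 (0.0420 and 0.453) and Wnt9a (0.549 and 2.45) lie farthest above the 2-fold line.

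Rnf43, the membrane ubiquitin ligase that clears Frizzled receptors and is itself a known Wnt target, was higher. It had 2.86, 1.77, 1.90 and 2.27 CPM in controls and 6.46, 4.06, 3.98 and 4.08 CPM in NICD libraries. Libraries 2, 4 and 5 were close together and library 1 stood above them. On average Rnf43 rose from 2.20 ± 0.487 to 4.65 ± 1.21 CPM (SD, n = 4 each), or 1.08 on the log2 scale (SE 0.26, adjusted p = 0.0418, close to the threshold), on chromosome 11 from 87662722 to 87735539. Znrf3, its partner enzyme, had 13.9, 12.1, 8.82 and 14.6 CPM in controls and 17.1, 10.3, 8.6 and 6.55 CPM in NICD libraries (log2 fold change -0.21, adjusted p = 0.628).

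Of the 7 membrane and cytoplasmic inhibitors, Rnf43 alone passed. Axin2, a feedback inhibitor and the best known readout of canonical Wnt signalling, had 15.1, 11.2, 10.3 and 9.46 CPM in controls and 12.4, 7.38, 8.40 and 3.93 CPM in NICD libraries (log2 fold change -0.52, SE 0.31, adjusted p = 0.266). Library 1 lay among the controls and the other 3 below them. Axin1, the scaffold of the destruction complex, had 76.4, 53.6, 58.8 and 57.5 CPM in controls and 63.3, 70.8, 65.5 and 38.7 CPM in NICD libraries, which overlap (adjusted p = 0.886). Nkd1, Nkd2 and Apcdd1, other inhibitors within or at the membrane, had group means of 0.841 to 2.96 CPM and adjusted p values of 0.287 to 0.527.

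The Dishevelled transducers did not pass either. Dvl1 had 46.9, 44.0, 43.2 and 39.9 CPM in controls and 45.2, 39.6, 45.5 and 27.7 CPM in NICD libraries (adjusted p = 0.585). Dvl2 had 19.0, 16.4, 18.9 and 16.5 CPM in controls and 19.3, 17.6, 19.7 and 16.8 CPM in NICD libraries (adjusted p = 0.803). Both genes overlap between the groups. Exons of both also share positions with a gene on the opposite strand that is in the count table, Tas1r3 and Acadvl. Dvl3 had 32.1, 26.8, 12.1 and 24.1 CPM in controls and 22.3, 6.2, 11.0 and 2.52 CPM in NICD libraries, and control 3 and library 1 again lay nearest to the other group (log2 fold change -1.17, SE 0.55, adjusted p = 0.175). Without NICD library 1 Dvl3 passed as lower (log2 fold change -1.83, adjusted p = 0.0184), and with the sign of each library's length trend as a covariate, chosen after the data were seen, its log2 fold change was -0.58 (adjusted p = 0.438).

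Of the nuclear effectors, Tcf7l2 was the most abundant per kb in NICD islets, at 4.84, 4.69, 3.76 and 4.75 CPM in controls and 5.27, 4.15, 4.28 and 7.71 CPM in NICD libraries (log2 fold change 0.25, adjusted p = 0.495). Tcf7l1, which mostly acts as a repressor, had 4.47, 6.42, 3.72 and 2.35 CPM in controls and 3.09, 1.97, 2.86 and 2.67 CPM in NICD libraries, within or below the range of the controls (log2 fold change -0.68, adjusted p = 0.172). Lef1 had 0, 6, 6 and 4 counts in controls and 12, 12, 11 and 17 in NICD libraries, without overlap (log2 fold change 1.75, SE 0.62, adjusted p = 0.102). Lef1 reached the count minimum through its NICD libraries alone, so these values describe it and support nothing. Tcf7, known from T cells, had 0.60, 0.549, 0.396 and 0.284 CPM in controls and 0.380, 0.742, 1.03 and 0.302 CPM in NICD libraries (adjusted p = 0.503).

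The other genes of the pathway came from lists of 80 genes, of which 68 were tested, 3 were higher, 1 was lower and 64 were not called, with a median log2 fold change of -0.19. The lists were chosen with earlier results of these data known, so counts over them describe the lists and support nothing. Gpc3 and Gpc6, glypicans that bind Wnts and other ligands at the cell surface, and Tnfrsf19 (Troy), a receptor known as a Wnt target, were higher, and Amer2, a membrane partner of Apc, was lower. By list, the genes called higher and lower were 0 and 1 of 14 tested for the destruction complex and β-catenin, 0 and 0 of 12 for nuclear co-factors, 2 and 0 of 10 for Wnt making, release and extracellular control, 0 and 0 of 19 for planar cell polarity and the non-canonical arm, and 1 and 0 of 13 for textbook targets. At an unadjusted p under 0.05 the co-factors counted 2 higher and 1 lower, the planar cell polarity list 0 and 1, the destruction complex list 0 and 5 (Apc, Gsk3b, Tnks, Tnks2 and Amer2), the list of making, release and extracellular control 2 and 1, and the textbook targets 4 and 1. Over all tested genes these shares are 4.19% called higher and 2.57% lower, and 16.6% and 15.0% at an unadjusted p. The 5 lower genes of the destruction complex list have long transcripts, from 6.48 kb (Tnks2) to 12.8 kb (Apc) for the longest of each. The part of the libraries' length trends in that count was not tested. β-catenin itself (Ctnnb1) had an adjusted p of 0.529, and the target gene Ccnd1 0.898. Myc, another target, had 7.59 to 10.4 CPM in controls and 4.52 to 6.59 CPM in NICD libraries, lower without overlap, and did not pass (adjusted p = 0.0779).

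Gpc3 had 5.26, 10.5, 5.22 and 5.48 CPM in controls and 171, 243, 265 and 260 CPM in NICD libraries. The lowest NICD library was many times the highest control. The mean rose from 6.62 ± 2.60 to 235 ± 43.6 CPM (SD, n = 4 each), or 5.15 on the log2 scale (SE 0.30, adjusted p = 3.71e-05). Gpc6 had 9.09, 13.8, 17.7 and 13.3 CPM in controls and 32.9, 37.7, 39.7 and 39.4 CPM in NICD libraries (log2 fold change 1.47, adjusted p = 0.00315), while Gpc4, another glypican, had 105 to 122 CPM in controls and 64.9 to 101 CPM in NICD libraries, lower without overlap, and did not pass (adjusted p = 0.108). Tnfrsf19 had 1.57, 2.03, 1.23 and 1.30 CPM against 3.09, 2.58, 3.49 and 4.58 CPM (log2 fold change 1.16, adjusted p = 0.0385). Amer2 had 9.87, 6.97, 6.25 and 6.25 CPM against 4.70, 2.88, 3.35 and 3.68 CPM (log2 fold change -1.0, adjusted p = 0.0368). With the offset for transcript length Amer2 was no longer called (log2 fold change -0.43, adjusted p = 0.246). Gpc3 and Gpc6 passed in 8 of 8 fits that left out 1 library, Amer2 in 2 (without control 3 and without NICD library 1) and Tnfrsf19 in 1 (without NICD library 1), with adjusted p values up to 0.122 and 0.109 in the rest. Of the 15 other alternative settings, Gpc3 passed in 15, Gpc6 in 14, Tnfrsf19 in 12 and Amer2 in 11. The highest adjusted p values there were 0.111 for Gpc6, 0.226 for Tnfrsf19 and 0.246 for Amer2.

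**Figure D4:**
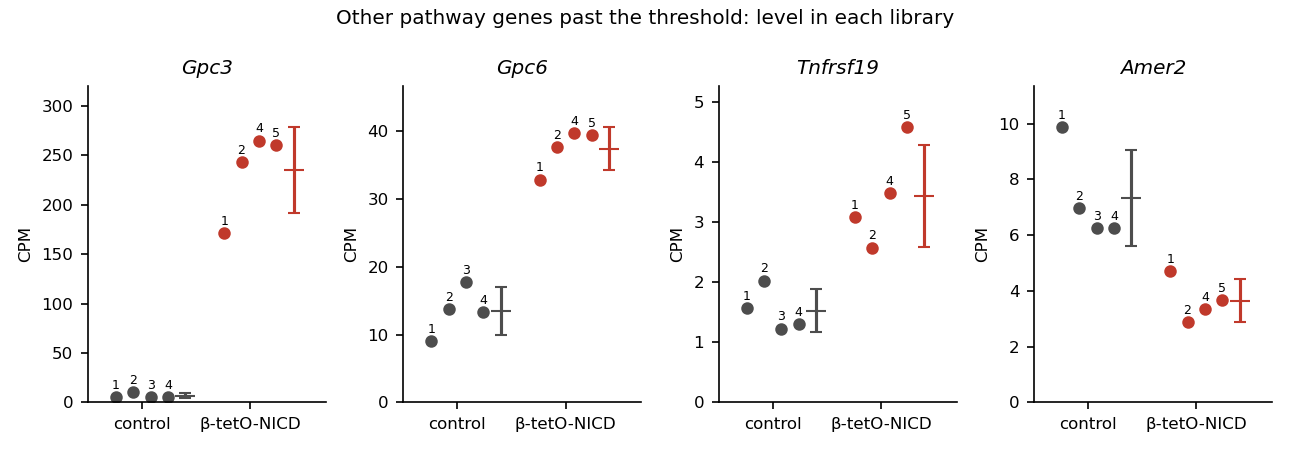
CPM of each library (points, numbered as in the count table) for the 4 other pathway genes with an adjusted p under 0.05, with the mean and SD of each group (n = 4) and each y axis starting at 0. The NICD libraries of Gpc3 lie between 171 and 265 CPM and its controls between 5.22 and 10.5 CPM, and Amer2 is the only one of the 4 with NICD libraries below the controls.

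Markers of other cell types moved beside these results. The summed level of 7 α cell markers was 12080 to 43189 CPM in controls and 55549 to 70541 CPM in NICD libraries, with Irx1 and Irx2 among those called higher and none at 0. Control 3 was the highest control for these markers, and also for Wnt4, Wnt9a and Sfrp5, whereas Lgr4 was highest in control 2, Rnf43 in control 1 and Fzd10 in control 2, with 0 counts in control 3. The summed level of 10 β cell markers was 157175 to 197769 CPM in controls and 72403 to 172163 CPM in NICD libraries, with 3 called lower. Of the δ and PP cell markers 1 of 5 was called higher (Hhex), with 3 fold changes above 0 and 2 below. Their summed level overlapped between the groups, at 7757 to 13525 CPM in controls and 7016 to 20494 CPM in NICD libraries. Of the macrophage and leukocyte markers 1 of 11 was called higher (C1qa), with 9 fold changes above 0 and 2 below. Their summed level was 185 to 233 CPM in controls and 258 to 364 CPM in NICD libraries. Of the Schwann and neural markers 1 of 9 was called lower (Th). Over all tested genes 4.19% were called higher and 2.57% lower. No acinar (26 tested), duct (9), endothelial (10) or stellate and fibroblast marker (13) was called (4 higher, 0 lower at an unadjusted p under 0.05 for endothelial, 3 and 0 for stellate and fibroblast, 2 and 1 for duct, 0 and 1 for acinar markers, against 16.6% higher and 15.0% lower of all tested genes), and acinar RNA was present in every library, at 91005 to 174116 CPM in controls and 70961 to 238645 CPM in NICD islets. The part of these cell types in the Wnt pathway results was not tested.

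Which of the 6 genes passed depended on the libraries included, as the plot across settings shows. Wnt9a passed in 8 of 8 fits that left out 1 library (adjusted p at most 0.0255), Wnt4, Lgr4, Sfrp5 and Rnf43 each in 2 of 8, and Fzd10 in 2 of the 4 in which it reached the count minimum. Without control 3 and NICD library 1, an alternative chosen after the data were seen, all 6 were called higher, and Dvl3, Fzd3, Fzd4, Fzd5, Lrp6 and Znrf3 were called lower, in a fit that called 19.5% of all tested genes higher and 19.9% lower, a larger share than 6 of 47 in each direction. With the sign of the length trend as a covariate instead, 3 of the 6 stayed called (Wnt9a, Lgr4 and Rnf43), and Wnt4, Sfrp5 and Fzd10 did not (2.40% of all tested genes called higher). With the presence of Eif2s3y as a covariate only Wnt9a and Fzd10 were called (3.21% of all tested genes higher). Among the 5 libraries with at most 1 count of it none was, where 0.597% of all tested genes were called higher, with adjusted p values of 0.0556 for Lgr4, 0.0572 for Fzd10, 0.0582 for Wnt9a and 0.321 to 0.414 for Rnf43, Wnt4 and Sfrp5.

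**Figure D5:**
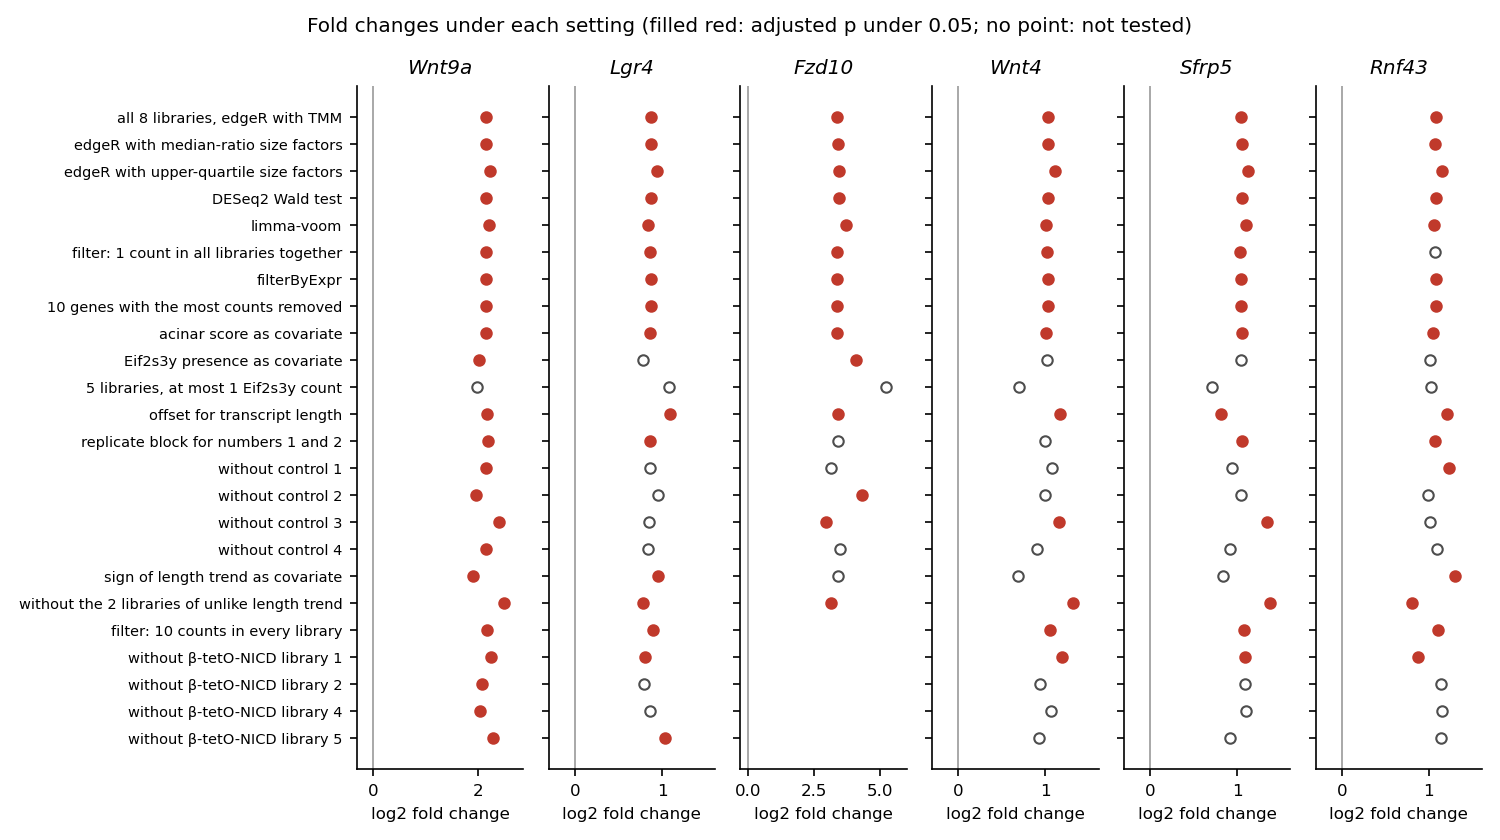
Log2 fold change (x axis, a scale for each gene) of the 6 Wnt pathway genes under the main test, named in the top line, and each alternative (rows); filled red points have an adjusted p under 0.05, open points do not, and a missing point means that the gene was not tested there. Every point lies above 0, and Wnt9a has 1 open point, for the 5 libraries with at most 1 count of Eif2s3y.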

How the data were processed

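Islet RNA of 4 control and 4 β-tetO-NICD mice was made into stranded poly(A) libraries. The authors pseudoaligned the reads to the GRCm38 mouse transcriptome with kallisto (version not given in the sources used here) and deposited whole-number counts per gene symbol that were not normalized. They also deposited a table of their own limma comparison, with log2 fold changes and p values, which was not used. Columns were matched to samples by name. Within a group no pair of libraries agreed within sampling noise.

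Counts were analysed with edgeR 4.0.16 in R 4.3.3. Genes that reached 10 counts in 4 or more libraries were kept, normalized by TMM and compared by the quasi-likelihood test without covariates, with Benjamini-Hochberg adjustment over all genes and a threshold of 0.05. Lengths and coordinates are from GENCODE M21. Per-library values were given for genes past the threshold, genes changed by at least 2-fold, the 3 most abundant per kb of each role, and genes under the minimum with 10 counts in any library. Members and lists were chosen with earlier results of these data known. The fits were first tested on simulated data.

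Alternatives were DESeq2 1.42.0, limma-voom (limma 3.58.1), other normalizations and filters, leaving out the 10 most counted genes, covariates for an acinar score and Eif2s3y, a transcript length offset, a replicate block, and leaving out libraries.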

Additional observations from a re-analysis of the deposited data

Results flagged for a closer look

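Sample by sample, 60 groups of 4 libraries were examined for a value whose gap to its nearest neighbour was, as a share of the group's range, above Dixon's critical value, which chance gives in about 1 of 20 groups, or 3 of 60. There were 4 such values. Rnf43 was highest in NICD library 1, with a ratio of gap to range of 0.961 (6.46 CPM against 3.98 to 4.08). Sfrp5 was highest in NICD library 5, with a ratio of 0.947 (104 CPM against 74.8 to 76.3). Lrp6 was highest in NICD library 1, with a ratio of 0.886 (99.4 CPM against 42.1 to 48.6). Tcf7l2 was lowest in control 3, with a ratio of 0.857 (3.76 CPM against 4.69 to 4.84).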

How the results depend on the processing

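With 6 Wnt pathway genes called higher and 0 lower, the counts moved as follows. With Eif2s3y as a covariate 2 were higher, and in the 5 libraries with at most 1 count of it 0 were. DESeq2 called 8 higher (Fzd1 and Sfrp2 added) and 2 lower (Fzd3 and Fzd5), the length offset 7 higher (Fzd1 added), and a filter of 1 count 5 higher (Rnf43 lost). Lower calls were 1 each with the acinar covariate and the sign of the length trend, the latter with 4 higher, and 6 in the fit without control 3 and NICD library 1. Leaving out 1 library in turn gave 1 to 5 higher and 0 to 4 lower. With the replicate number as a block for numbers 1 and 2, 4 were higher and 1 lower (Fzd3), and Wnt4 (adjusted p = 0.0560) and Fzd10 (0.0521) were lost. Same-numbered libraries deviated together for number 1 (correlation 0.276) and not for number 2 (-0.0899), so the numbers were not taken to pair the mice. Over all genes (632 higher, 388 lower), the block called 558 and 412, the filter of 1 count 631 and 351, DESeq2 called 1495 and 1244, the 5 libraries 90 and 32, the sign of the length trend 362 and 246, and the fit without 2 libraries 2936 and 2994. The acinar covariate gave 659 lower, the Eif2s3y covariate 257 and the length offset 677 (with 870 higher), and leaving out 1 library gave 222 to 2423 higher and 97 to 2531 lower. The cause was not tested.

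Of 671 fits of 30 named genes, 591 kept direction and side of the threshold, 42 lost a call, 18 gained one and 20 changed sign, none of a called gene. Upper-quartile scaling, which shifts the median of all genes to 0.08, gave log2 fold changes of 0.0306 for Axin1 and 0.00729 for Frzb. The length offset gave 0.0185 for Axin1, 0.0447 for Dvl1, 0.0788 for Fzd3, 0.16 for Lrp6 and 0.10 for Znrf3, and the sign of the length trend 0.0046 for Axin1, 0.0762 for Lrp6 and 0.15 for Znrf3. The 5 libraries gave -0.0069 for Dvl2, -0.0728 for Ryk and 0.0809 for Znrf3, and the fit without 2 libraries -0.20 for Rspo3. Leaving out 1 library gave -0.14 to 0.12 for Axin1, -0.21 to 0.0021 for Dvl1, -0.19 to 0.0022 for Frzb and -0.28 to 0.34 for Rspo3. Depth limits the 18 genes under the minimum, and Fzd10, Lef1 and Sfrp2 in controls.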
